A study of Mus musculus with 12 samples.

Results

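Kinesins are motor proteins that walk along microtubules, and a subset of them builds and drives the mitotic spindle. The 10 genes described here, Kif15, Kif11, Kif20a, Kif20b, Kif23, Kif2c, Kif4, Kif18a, Kif18b and Kif22, belong to that subset. They are 10 of the 23420 genes in the table, found by their symbols, and all 10 had counts in every library. The set was chosen by the measured difference between GFP-HI and GFP-LO cells, in which Kif15 had passed the test, so that difference is given below as a description and supports nothing further. The cells were basal epithelial cells of the hard palate of 6 FVB mice, each heterozygous for K5-tTA and for tetO-H2B-GFP. The keratin 5 promoter makes a tetracycline transactivator, which switches on a GFP-tagged H2B histone. Doxycycline stops new synthesis of that histone, and after 14 days of chase a cell that divided more often holds less of it. Both fractions carry the same alleles and had the same chase. Cells positive for CD49f were sorted from each mouse into a GFP-HI library, which the submitters call infrequently dividing, and a GFP-LO library, which they call frequently dividing. Mouse B7F has an age label of 71 days and the other 5 mice one of 49 days, and every library came from a pool of 200 to 1000 cells. Labelling is limited to cells that use the keratin 5 promoter, and how bright each cell was before doxycycline was not analysed here.

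In a dividing cell, plus-end motors such as Kif11 push the spindle poles apart, chromosome-bound kinesins and microtubule depolymerases position the chromosomes, and midzone kinesins organise the structure where the cell splits. Transcription of most of these genes is known to peak in G2 and mitosis and to be held down in resting cells. The repression acts through the DREAM complex at a promoter element called the cell cycle homology region, while NF-Y at CCAAT boxes and the factors B-MYB and FOXM1 activate such genes.

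Because all 10 kinesins are known as genes of this class, their promoters were searched for TTTGAA, the most common form of the cell cycle homology region, and for CCAAT, the NF-Y box, on both strands. RefSeq promoter sequences on GRCm38.p6, which come from the C57BL/6J reference and not from FVB, were matched for 9 of the 10. TTTGAA lay between 70 bases before and 30 bases after the annotated start in 7 of 9 promoters, against 5.11% of all 32851 promoters in the same window. CCAAT lay there in 5 of 9, against 16.1% of all promoters. Over the whole window, 250 bases before to 50 after, TTTGAA was found in 8 of 9 against 17.9%, and CCAAT in 5 of 9 against 37.4%. The stretches below show how close these matches sit to the start in Kif15 (chr9:122951011-122951110, plus strand), Kif11 (chr19:37376312-37376411, plus strand), Kif23 (chr9:61946770-61946869, minus strand), Kif18b (chr11:102925095-102925194, minus strand) and Kif20b (chr19:34922288-34922387, plus strand). Each runs 5′ to 3′ on the gene's own strand, with matches to both motifs, on either strand, in capitals.
Kif15: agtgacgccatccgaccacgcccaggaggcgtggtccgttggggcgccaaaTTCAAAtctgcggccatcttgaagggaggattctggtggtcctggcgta
Kif11: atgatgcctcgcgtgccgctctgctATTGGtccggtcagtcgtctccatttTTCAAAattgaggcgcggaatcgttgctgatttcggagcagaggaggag
Kif23: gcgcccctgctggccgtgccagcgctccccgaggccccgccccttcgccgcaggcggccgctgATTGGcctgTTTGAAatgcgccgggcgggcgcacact
Kif18b: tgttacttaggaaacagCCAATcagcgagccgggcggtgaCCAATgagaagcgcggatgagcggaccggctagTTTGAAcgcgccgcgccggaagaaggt
Kif20b: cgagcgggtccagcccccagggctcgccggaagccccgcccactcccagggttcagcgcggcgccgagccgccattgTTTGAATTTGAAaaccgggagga

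Kif15 and Kif11, the pair of motors that separate the poles, both carried the match on the reverse strand with its leftmost base 19 bases before the start. In Kif23 and Kif18b it began on the forward strand at the 3rd and 4th base after the start, and Kif20b held it in tandem at bases 8 and 14. Kif4 and Kif22 held it at base 20 after and 17 bases before the start. The match nearest the start of Kif2c was 103 bases upstream, and Kif18a held no match to either motif in its window. The annotated start equalled that of the counted gene model in 7 of the 9 genes and differed by 21 bases for Kif11 and by 3852 bases for Kif2c. A match is a string of letters, and whether any factor occupies it in these cells was not measured.

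**Figure D1:**
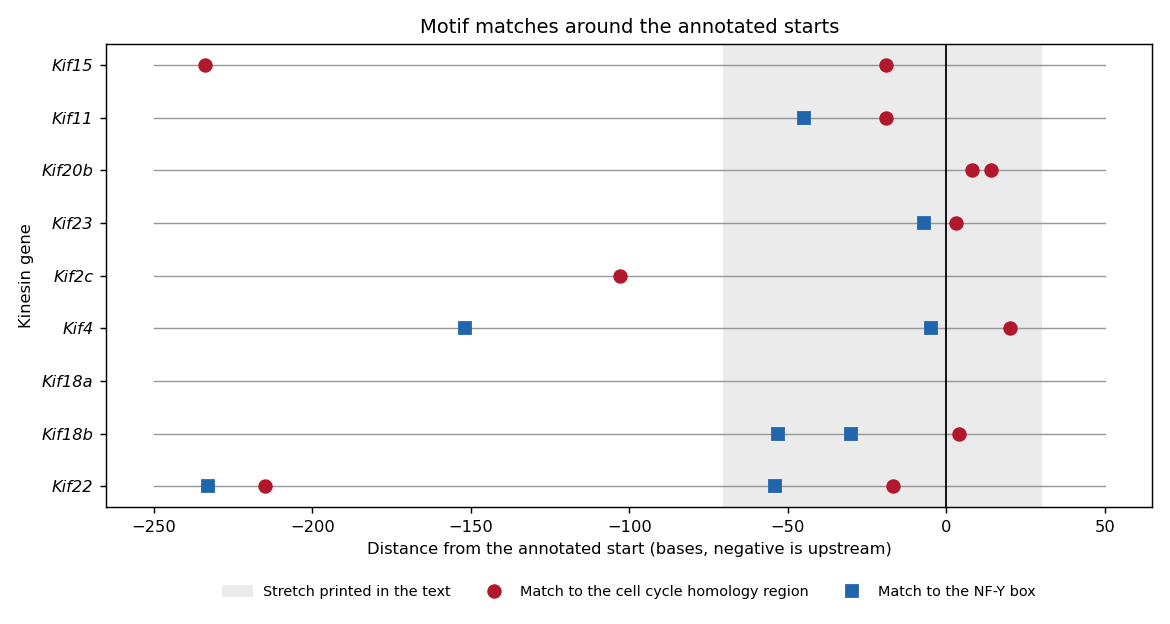
Matches to the cell cycle homology region (circles) and the NF-Y box (squares) by distance in bases from the annotated start of 9 kinesin genes, with the stretch from 70 bases before to 30 after shaded. In 7 of the 9 genes a circle lies in the shaded stretch.

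The libraries held 6678444 to 10547665 counts each, of which the ribosomal precursor gene Rn45s took 31.5% to 59.8%. The 10 kinesins together held 3917 to 7612 counts per GFP-HI library and 2981 to 5177 per GFP-LO library, and no member fell below 94 counts in any library. Among GFP-HI libraries, those of B1M and B3M stood apart, with the fewest genes detected (12312 and 12810, against 13101 to 19023 in the other 10 libraries) and the highest sums of clustered histone transcripts, so values without these mice are given below. Their GFP-LO libraries also had the fewest genes detected (13101 and 14872) and highest histone sums (9570 and 10110 CPM) of that fraction. All 9 basal keratinocyte markers were expressed and summed to 15540 to 24280 CPM (counts scaled to the library total after normalisation) in GFP-HI and 18450 to 25250 CPM in GFP-LO, whereas 9 leukocyte markers summed to at most 31.5 and 42.05 CPM. The 5 endothelial markers summed to at most 5.41 CPM in GFP-HI libraries and 2.70 CPM in GFP-LO libraries, and 1 of them, Emcn, had 0 counts throughout. Fibroblast, melanocyte and Merkel cell markers summed to at most 12.8, 18.4 and 35.0 CPM in GFP-HI libraries and 3.50, 13.2 and 30.2 CPM in GFP-LO libraries. Suprabasal keratins and cornification genes, 11 in the table, summed to 4653 to 9753 CPM in GFP-HI, against 5018 to 7186 CPM in GFP-LO; their part in the kinesin values was not tested. In bulk libraries of sorted cells, a different share of cells in mitosis and a different amount of kinesin RNA per cell cannot be told apart.

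Kif15, the plus-end motor that binds the spindle with Tpx2 and can take over from Kif11, was higher in the GFP-HI library of every mouse. Its lowest, median and highest values were 51.8, 67.0 and 94.5 CPM in GFP-HI cells, against 37.0, 46.0 and 53.7 CPM in GFP-LO cells. The fractions overlapped only through GFP-HI of B4M, which lay below GFP-LO of B7M, so 5 of 6 GFP-HI libraries exceeded every GFP-LO library. The means were 69.1 ± 16.6 CPM for GFP-HI, against 44.9 ± 6.28 CPM for GFP-LO (SD, n = 6 each), a log2 fold change of GFP-HI over GFP-LO of 0.60 ± 0.11 (SE), or 1.52-fold. The difference within mice was positive in 6 of 6 and ranged from 0.32 in B5M to 0.96 in B3M on the log2 scale. Kif15 lies on chromosome 9 from 122951081 to 123018733 (mm10) and overlapped no exon of another gene in the table.

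B1M and B3M had the largest Kif15 differences, 0.78 and 0.96, and without these mice the log2 fold change was 0.46 ± 0.11 (SE). In the fit over all 11719 genes tested, with mouse as a block, Kif15 ranked 52nd by p and had an adjusted p of 0.0252 (edgeR's quasi-likelihood test). The call was lost when B3M, B4M, B7F or B7M was left out (adjusted p = 0.11, 0.082, 0.094 and 0.105), when the clustered histone genes were left out (adjusted p = 0.081) and in the fit without the mouse block (adjusted p = 0.999). Without the histone genes Kif15 kept its log2 fold change (0.603, against 0.602) and unadjusted p (1.11e-04, against 1.12e-04, edgeR). Genes called higher fell from 55 to 6 there, and an adjusted p depends on the p of all genes.

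Kif11, the principal motor of spindle bipolarity, was among the most abundant members and differed less. It had 88.6, 104.9 and 139 CPM (lowest, median, highest) in GFP-HI and 69.4, 93.5 and 109 CPM in GFP-LO, so the fractions overlapped between 88.6 and 109 CPM. The log2 fold change was 0.30 ± 0.10 (SE), the smallest of the 10. Mouse B1M went the other way (−0.11) and B5M was close to 0 (0.01), whereas B7F had 0.59.

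**Figure D2:**
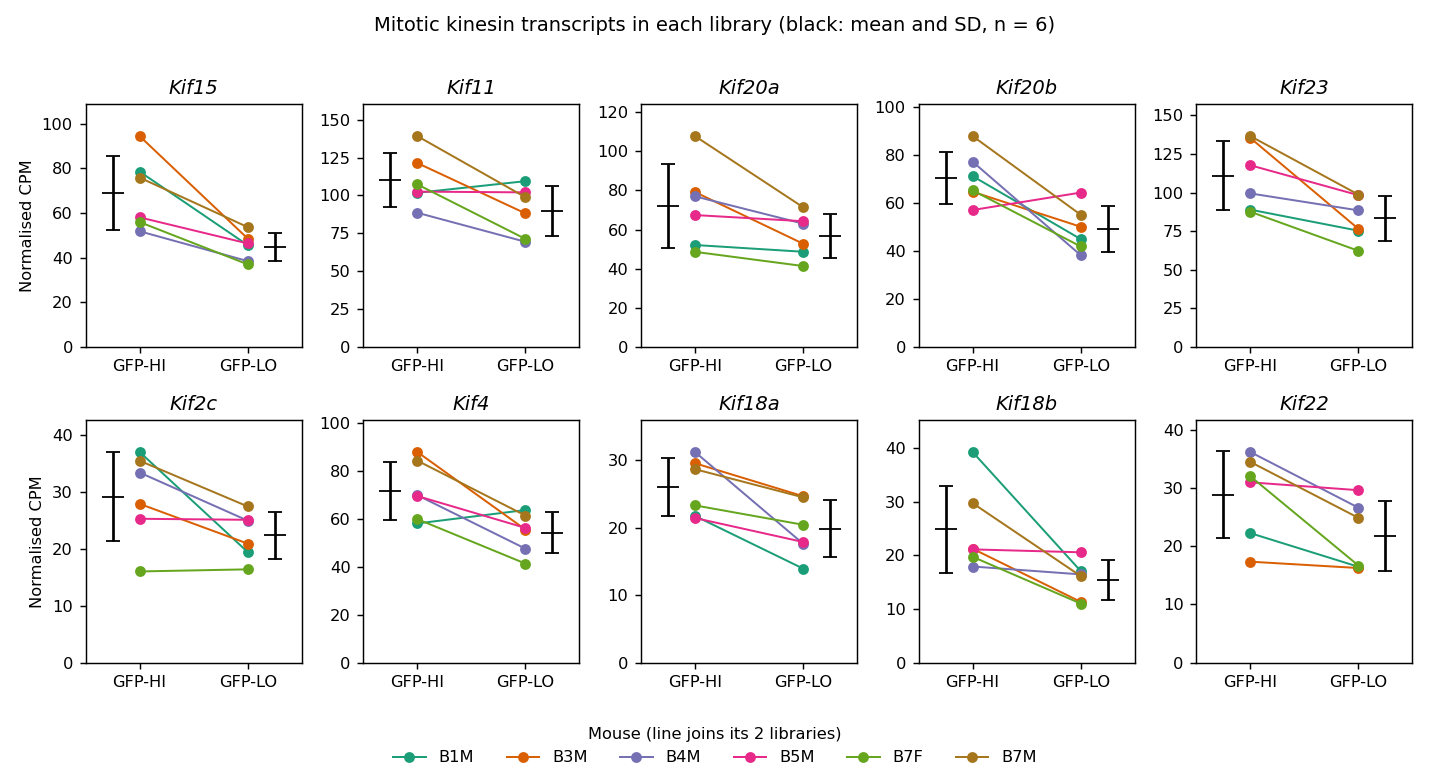
Normalised CPM of each kinesin in the 12 libraries, with GFP-HI left of GFP-LO, a line joining the libraries of each mouse, and the mean and SD of each fraction in black. GFP-HI is higher for Kif15 in every mouse, and it is lower for Kif11 and Kif4 in B1M, for Kif20b in B5M and for Kif2c in B7F.

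Of the kinesins that act on chromosomes, Kif4, a chromokinesin that also works with Prc1 at the midzone, had 58.2, 69.9 and 88.1 CPM in GFP-HI cells, against 41.4, 56.0 and 63.8 CPM in GFP-LO cells (lowest, median, highest). Its log2 fold change was 0.40 ± 0.11 (SE), positive in 5 of 6 mice and −0.13 in B1M. Kif22, the chromokinesin that pushes chromosome arms away from the poles, had 17.3, 31.5 and 36.2 CPM in GFP-HI cells, against 16.2, 20.8 and 29.6 CPM in GFP-LO cells. The GFP-HI and GFP-LO libraries of B3M were the lowest for this gene in their own fractions, and the log2 fold change was 0.41 ± 0.16 (SE).

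Kif18a and Kif18b, related motors that shorten or restrain microtubule plus ends, were the least abundant members per kilobase of exon. Kif18b had 17.9, 21.2 and 39.3 CPM in GFP-HI cells, against 11.03, 16.3 and 20.6 CPM in GFP-LO cells, and its highest value came from GFP-HI of B1M. The log2 fold change was 0.67 ± 0.19 (SE), and 0.47 ± 0.17 without B1M and B3M. Kif18a, which damps the movements of aligned chromosomes, had 21.4, 26.0 and 31.2 CPM in GFP-HI cells, against 13.9, 19.2 and 24.7 CPM in GFP-LO cells. Its difference was positive in 6 of 6 mice and its log2 fold change was 0.40 ± 0.15 (SE).

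Kif2c, a depolymerase that corrects faulty attachments at centromeres, had 16.1, 30.7 and 37.1 CPM in GFP-HI cells, against 16.4, 23.0 and 27.5 CPM in GFP-LO cells. The lowest library of both fractions came from B7F, the mouse of 71 days, where the difference was −0.03. Its log2 fold change of 0.35 ± 0.16 (SE) was 0.20 ± 0.15 without B1M and B3M, the largest proportional drop among the 10.

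Of the kinesins of the midzone and of cytokinesis, Kif23, the motor subunit of centralspindlin, had 87.6, 108.5 and 137 CPM in GFP-HI cells, against 62.2, 82.5 and 98.7 CPM in GFP-LO cells, with a log2 fold change of 0.41 ± 0.10 (SE) and a positive difference in 6 of 6 mice. Kif20a, which carries the Aurora B complex to the midzone, had 48.6, 72.2 and 108 CPM in GFP-HI cells, against 41.3, 57.9 and 71.4 CPM in GFP-LO cells, with a log2 fold change of 0.31 ± 0.11 (SE). The highest Kif20a value was GFP-HI of B7M, and the difference was below 0.10 in B1M and B5M.

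Counts of Kif20a carry an extra limit. Its gene, on chromosome 18 from 34624624 to 34633277 (mm10), shares 1115 exonic bases with Cdc23 and 187 with Brd8, both on the opposite strand, and the strand setting of the counting is not given in the sources used here. No other member shared exonic bases with another gene in the table.

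Kif20b, a relative of Kif20a with a part in the completion of cytokinesis, had 57.0, 68.1 and 87.8 CPM in GFP-HI cells, against 38.2, 47.4 and 64.2 CPM in GFP-LO cells. Mouse B5M supplied both the lowest GFP-HI and the highest GFP-LO library, and the fractions did not otherwise overlap. Its log2 fold change was 0.53 ± 0.14 (SE), and the difference within mice ran from −0.17 in B5M to 1.01 in B4M.

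All 10 members had a positive log2 fold change, from 0.30 to 0.67 with a median of 0.40, where 46.9% of all genes tested were positive and their median was −0.02. The higher values were thus in the fraction that the submitters call infrequently dividing. Only Kif15, 1 of the 10, was called higher in GFP-HI, a call made for 0.469% of all genes tested, and 0 were called lower, against 0.0597% of all genes. The other 9 had adjusted p from 0.122 for Kif23 to 0.668 for Kif2c (edgeR). GFP-HI exceeded GFP-LO in all 6 mice for 6 members, Kif15, Kif18a, Kif18b, Kif20a, Kif22 and Kif23, which held for 3.3% of all genes tested. Every GFP-HI library exceeded every GFP-LO library for 0 members, against 0.0683% of all genes tested. Since this contrast chose the set, nothing is read from these shares.

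Of the 60 combinations of a member and a mouse, 56 were higher in GFP-HI, and the 4 that were not fell in B1M (Kif11 and Kif4), B5M (Kif20b) and B7F (Kif2c). Mouse B5M had the smallest median difference over the 10 members, at 0.07, while the medians of the other 5 mice lay between 0.42 (B4M) and 0.56 (B7F). Summed over the members, B5M had 571 CPM in GFP-HI cells, against 525 CPM in GFP-LO cells, a GFP-LO sum exceeded only by the 532 CPM of B7M. B7F, the older mouse, had the lowest sums of both fractions, at 516 CPM in GFP-HI cells, against 360 CPM in GFP-LO cells. With 1 mouse of that age, age cannot be told apart from the mouse.

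**Figure D3:**
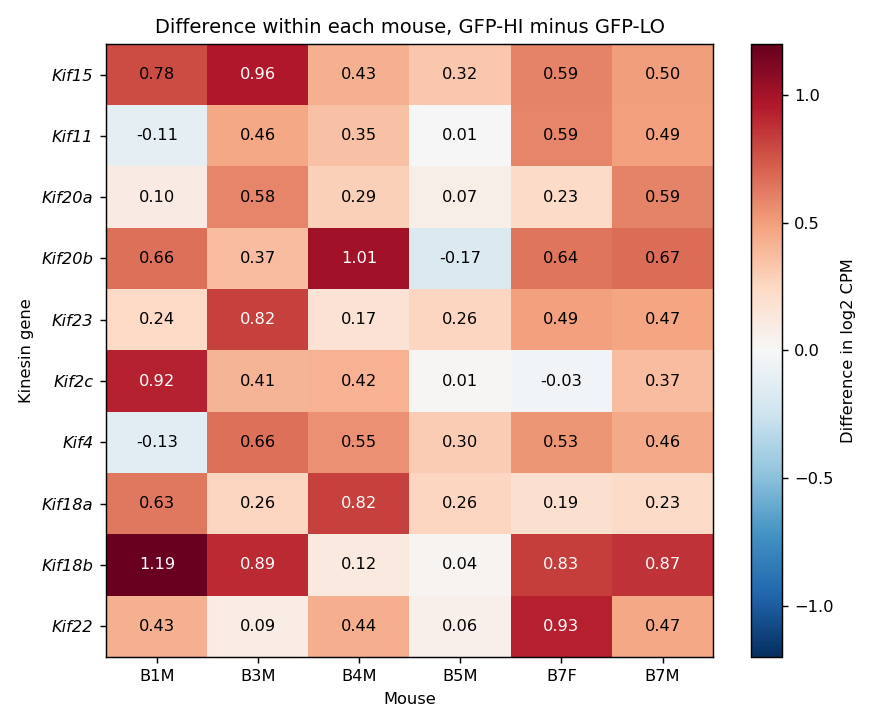
Difference in log2 CPM, GFP-HI minus GFP-LO, for each kinesin (rows) in each mouse (columns), with the value printed and red for higher in GFP-HI. The B5M column is pale, with 9 of 10 values positive and a highest value of 0.32 for Kif15.

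Levels were compared between members as CPM per kilobase of exonic length, a quantity that did not enter the choice of the set. Kif23 stood highest at 28.3 ± 4.79 (SD over 6 mice), followed by Kif11 at 20.7 ± 2.90, Kif20a at 16.5 ± 4.04 and Kif4 at 13.4 ± 1.78. The level and place of Kif20a carry the limit given above, since part of its exonic length is shared with genes on the opposite strand. Kif22, Kif15 and Kif20b followed at 12.3 ± 2.98, 11.8 ± 2.22 and 10.7 ± 1.11. Kif2c, Kif18a and Kif18b were lowest at 9.13 ± 1.90, 6.8 ± 1.12 and 6.04 ± 1.46. The highest mean was 4.69 times the lowest, and the lowest library of Kif23, at 18.2, exceeded the highest of Kif18b, at 11.8.

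All 9 pairs of neighbours in this order had overlapping ranges over the 12 libraries. Each pair was compared by an exact two-sided sign-flip permutation over the 6 mice, whose smallest p is 0.03125. The order itself was taken from the same 12 libraries, so the direction within a pair is not an independent result. After correction for 9 pairs an adjusted p under 0.05 needs at least 6 pairs at that smallest value, so this design could not separate a single pair. Kif23 exceeded Kif11 by 1.36-fold, in 6 of 6 mice and at the smallest p (exact p = 0.03125, adjusted p = 0.169). Kif22 and Kif15, and Kif15 and Kif20b, differed by 1.03-fold and 1.09-fold (adjusted p = 0.812 and 0.375). Of all 45 pairs of members, 9 had ranges over the 12 libraries that did not overlap. The order was the same in both fractions except that Kif15 stood 5th in GFP-HI and 6th in GFP-LO, trading places with Kif22.

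**Figure D4:**
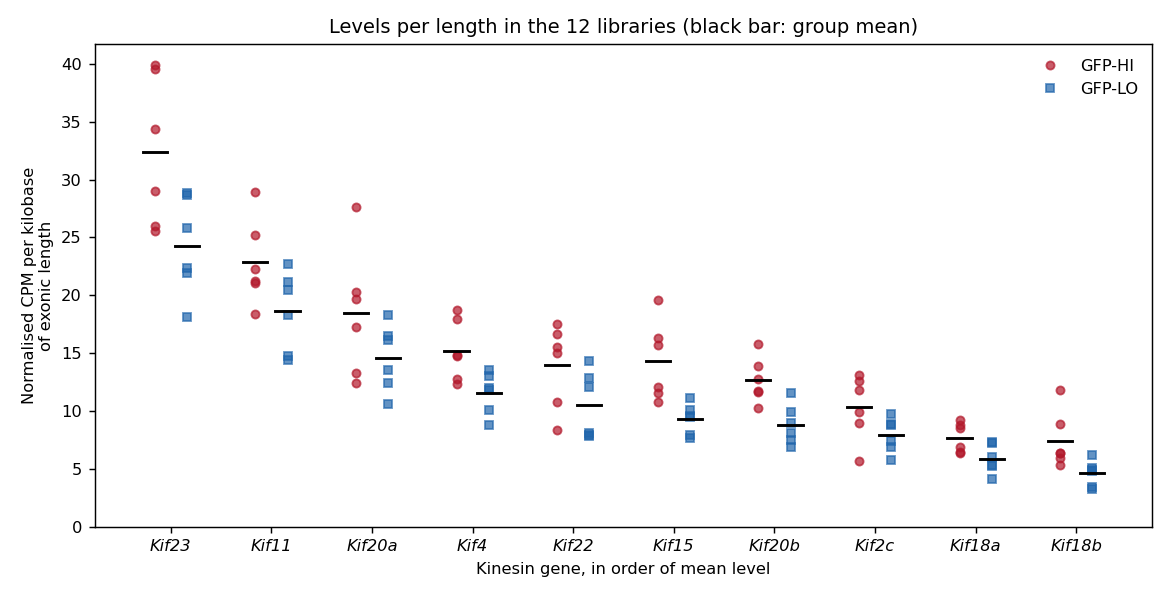
Normalised CPM per kilobase of exonic length for each kinesin in order of mean level, with 6 GFP-HI libraries (circles) left of 6 GFP-LO libraries (squares) and black bars for group means. Levels run from 28.3 for Kif23 to 6.04 for Kif18b, and each GFP-HI mean lies above its GFP-LO mean.

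The pattern of each gene over the 12 libraries was compared by the root-mean-square distance between log2 CPM values centred on the gene's own mean, given here as a description. Kif20a and Kif23 were nearest to each other among members, at 0.162, and Kif23 was the nearest of all tested genes to Kif20a. Kif11 and Kif4 were nearest to each other, at 0.155. Kif22 was the most distant member from 5 of the other 9, Kif15 among them, at 0.546, where the median distance of all tested genes from Kif15 was 0.569.

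The 5 genes nearest to Kif15 were Nusap1, a microtubule-bundling protein (0.154), Incenp, the scaffold of the chromosomal passenger complex (0.175), Mpdz, a scaffold of cell junctions (0.183), Mad2l1, of the spindle checkpoint (0.188), and Ncapg, a condensin subunit (0.198). With edgeR 0 of the 5 were called and 5 had an unadjusted p under 0.05, all higher in GFP-HI. Over all genes tested, 0.469% were called higher and 4.3% were higher at that unadjusted p. DESeq2 called 2 of them, Nusap1 and Incenp (adjusted p = 0.0079 and 0.0101), and 120 of 11719 genes higher over all. The distance includes the difference between the fractions, so genes near Kif15 share it by construction. Nothing is read from these counts. Nusap1, for example, averaged 83.3 ± 14.3 CPM in GFP-HI cells, against 58.8 ± 9.05 CPM in GFP-LO cells (SD, n = 6 each; log2 fold change 0.50 ± 0.11 SE, edgeR adjusted p = 0.097). Mpdz averaged 23.6 ± 6.94 CPM in GFP-HI cells, against 17.0 ± 1.51 CPM in GFP-LO cells (log2 fold change 0.44).

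Outside the 10, kinesins with a known part in division had no call with edgeR or DESeq2. All 7 were in the table and 6 passed the filter on low counts; 5 were positive, and the median log2 fold change was 0.20. That median depended on single mice, at 0.038 without B3M, 0.123 without B7F and 0.305 without B1M. Cenpe, the kinetochore motor that moves chromosomes to the spindle equator, had 132 ± 30.5 CPM in GFP-HI cells, against 106 ± 21.5 CPM in GFP-LO cells (SD, n = 6 each; log2 fold change 0.31 ± 0.10 SE, edgeR adjusted p = 0.34). Kif14, which works in cytokinesis with citron kinase, averaged 41.8 CPM in GFP-HI libraries, against 32.9 CPM in GFP-LO libraries (log2 fold change 0.345, adjusted p = 0.61). Kif24, which removes microtubules at centrioles, had 0.21 (adjusted p = 0.90). Kifc5b, a minus-end motor so close in sequence to Kifc1 that the counting could have split their reads, had 0.20 (adjusted p = 0.91).

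Kinesins of transport and of cilia, with their light chains, had no call among 25 tested of 30 (edgeR and DESeq2), 14 positive values and a median of 0.04, which was −0.0034 without B3M. The 4 with the smallest p were Kif26a, Kif21b, Kif27 and Kif26b, with log2 fold changes of 0.25, 0.32, 1.26 and −0.51 (adjusted p from 0.69 to 0.80). Kif27, a relative of the Hedgehog regulator Kif7, was at most 4.33 CPM in any library. At an unadjusted p under 0.05 (edgeR) there were 0 of 25 transport kinesins and 2 of the 6 division kinesins, where 7.24% of all genes tested passed in either direction and 4.3% were higher in GFP-HI. With so few genes, neither count is read against that share.

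Partners of the kinesins had no call in the edgeR fit with all mice and the filter on low counts. Other settings called some higher: 4 spindle and 3 midzone partners with DESeq2, 3 and 2 with edgeR and no filter, 2 and 2 without B1M and B3M, and 2 and 0 without B1M or without B5M. Over all genes these settings called 120 of 11719, 127 of 21827, 117 of 11945, 81 of 11850 and 48 of 11654 higher, in that order. Of 19 tested spindle assembly partners 17 were positive, with a median of 0.28, and 9 had an unadjusted p under 0.05, all higher in GFP-HI, against 4.3% of all genes tested. Tpx2, which recruits Kif15 and Kif11 to the spindle, had 87.8 ± 21.0 CPM in GFP-HI cells, against 58.9 ± 13.9 CPM in GFP-LO cells, higher in 6 of 6 mice (SD, n = 6 each; log2 fold change 0.57 ± 0.12 SE, edgeR adjusted p = 0.071). Cdk1, the mitotic kinase that phosphorylates Kif11, had a log2 fold change of 0.50 in 6 of 6 mice (adjusted p = 0.20), and Mki67, whose protein is a known partner of KIF15 in human cells, had 0.37 in 5 of 6 mice (adjusted p = 0.097). Of the 12 midzone partners 11 were positive, with a median of 0.31, and 7 had an unadjusted p under 0.05, all higher in GFP-HI, against the same 4.3%. Since both partner lists were chosen with earlier results of these data known, nothing is read from these shares. Incenp, the midzone bundler Prc1 and the cortical protein Anln were each higher in 6 of 6 mice (0.43, 0.47 and 0.30 on the log2 scale, adjusted p = 0.091, 0.152 and 0.159), and Racgap1, the partner of Kif23 in centralspindlin, in 5 of 6 (0.32, adjusted p = 0.614).

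Among 18 tested regulators of G2/M transcription 10 were positive, the median was 0.04, which was −0.0075 without B4M, and 0 were called with edgeR or DESeq2. At an unadjusted p under 0.05 there were 2 of 18 (edgeR), both higher in GFP-HI, against 4.3% of all genes tested. Nothing is read from that share either. Foxm1, the activator of mitotic genes, had 46.1 ± 11.6 CPM in GFP-HI cells, against 32.6 ± 10.2 CPM in GFP-LO cells (SD, n = 6 each; log2 fold change 0.54 ± 0.18 SE, edgeR adjusted p = 0.49), higher in 4 of 6 mice. E2f1, E2f7 and Lin54 were at 0.91 ± 0.40, 0.78 ± 0.37 and 0.20 ± 0.15 (SE) on the log2 scale (edgeR adjusted p from 0.67 to 0.81). Lin54 is a DNA-binding subunit of the complex that reads the cell cycle homology region. E2f1 averaged 7.49 CPM in GFP-HI cells, against 3.59 CPM in GFP-LO cells, and E2f7 averaged 7.82 against 4.77 CPM. Mybl2, the gene of B-MYB, had 3.6 ± 3.75 CPM in GFP-HI cells, against 3.5 ± 1.33 CPM in GFP-LO cells (SD, n = 6 each). Its log2 fold change was −0.40 ± 0.54 (SE, edgeR adjusted p = 0.90), and GFP-HI was higher in 1 of 6 mice. Whether the lists differ from each other was not tested.

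**Figure D5:**
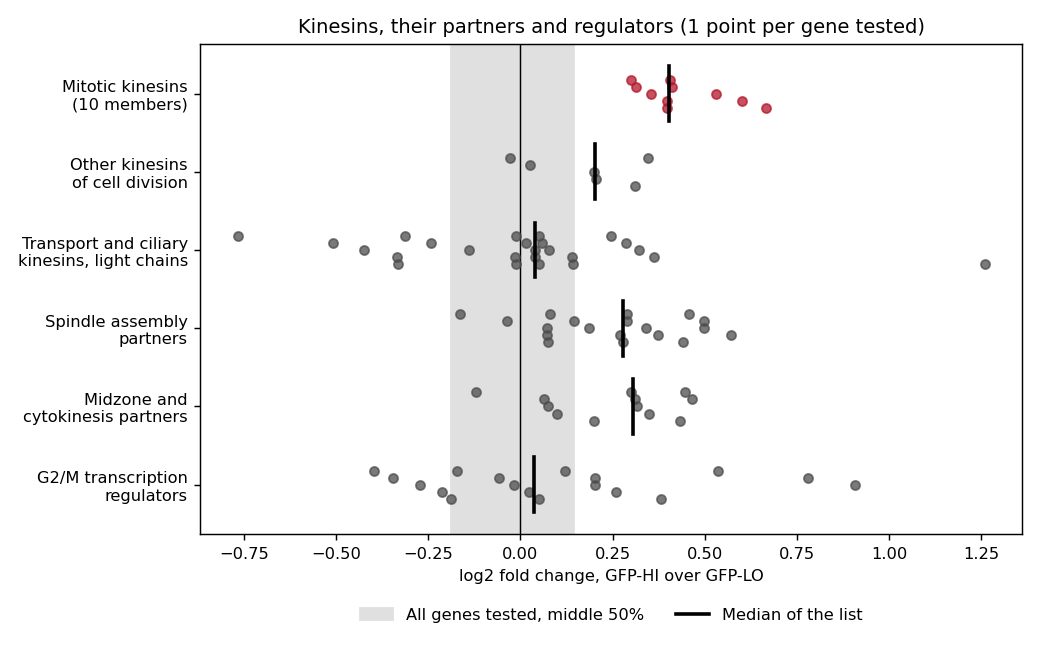
log2 fold change of GFP-HI over GFP-LO for each tested gene (points) of 6 lists, with the median of each list as a black bar and the middle 50% of all genes tested, from −0.19 to 0.14, shaded. The 10 kinesins lie between 0.30 and 0.67, to the right of the shaded band, while transport kinesins and transcription regulators have medians of 0.04 with all 6 mice (−0.0034 without B3M for the transport list, −0.0075 without B4M for the regulators).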

How the data were processed

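The deposited table holds raw read counts per gene, which the authors did not normalise, for 12 libraries of 6 mice. Per the submitters' processing notes, featureCounts was used on mm10 (GRCm38). The sources used here do not give the aligner, strand setting or treatment of multiply mapped reads. Libraries were prepared with the NuGEN SoLo kit, per the labels' protocols.

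Counts were fitted in R 4.3.3 with edgeR 4.0.16 (genes filtered by group with a minimum count of 10 and a minimum total of 15, leaving 11719; TMM scaling; robust quasi-likelihood test, two-sided; Benjamini-Hochberg adjusted p under 0.05). The fit was also run on simulated counts with the same dispersion for all genes, which does not show how it performs on these libraries. CPM use the TMM-scaled library totals, with a prior count of 2 on the log2 scale. Both libraries of a mouse share an animal code in the titles, so mouse was a block. Deviations from the group mean correlated at 0.23 to 0.49 within mice and at most 0.26 between mice.

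Members and lists were chosen with earlier results of these data known. Named genes are the 10 members, up to 4 genes with the smallest p in each other list, and the 5 nearest to Kif15. Mybl2 was added as the gene of an activator named in the background. Alternatives covered scaling, filter, block, DESeq2 1.42.0, robust estimation, Rn45s, clustered histone genes and leaving out mice.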

Additional observations from a re-analysis of the deposited data

How the results depend on the processing

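All 10 members kept a positive log2 fold change in each of the 14 alternatives, 140 values in all, and the median over members stayed within the spread between mice. The number of members called higher, 1 with all mice, depended on the setting. It was 0 in the fit with no replicate block and 0 with clustered histone genes left out. In the latter fit Kif15 had an unadjusted p of 1.11e-04, against 1.12e-04 with all genes (edgeR). It was 3 in the fit with no filter on low counts and 3 with DESeq2 (Kif15, Kif20b and Kif23 in both), and 2 without B1M and B3M (Kif15 and Kif4). Leaving out single mice gave 0 to 3 members: 3 without B1M (Kif15, Kif23 and Kif4), 2 without B5M (Kif15 and Kif20b), and 0 without B3M, B4M, B7F or B7M. The cause was not tested. Kif15's log2 fold change ranged from 0.46 to 0.66 and its adjusted p from 3.9e-04 to 0.999 over the alternatives. In the paired fit 55 and 7 genes were called higher and lower over all genes, and 0 and 0 without the block (440 at an unadjusted p under 0.05). Calls over all genes were 127 and 45 without a filter, 120 and 23 with DESeq2, 6 and 3 without clustered histone genes (800 at an unadjusted p under 0.05), 117 and 34 without B1M and B3M, 29 and 4 without B3M, and 30 and 2 without B4M. Calls over all genes were also 81 and 14 without B1M, 48 and 3 without B5M, 40 and 5 without B7F, and 44 and 4 without B7M. Spindle and midzone partners, with 0 calls in the edgeR fit with all mice, had 4 and 3 with DESeq2, 3 and 2 without a filter, 2 and 2 without B1M and B3M, and 2 and 0 without B1M or without B5M. The median of the other division kinesins ranged from 0.038 to 0.305 when single mice were left out. Of the 9 neighbour pairs in the order of level, 9 kept their order under median-of-ratios scaling, 8 to 9 when single mice were left out, and 6 without division by length.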

Other observations

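Kif4-ps, an annotated pseudogene of Kif4, had 91 counts in the GFP-HI library of B1M and at most 9 in any other library, against 474 counts of Kif4 in that library. B1M was also the mouse in which Kif4 was not higher in GFP-HI, at 58.2 CPM against 63.8 CPM in GFP-LO. With the counts of both genes added, a calculation chosen after the values were seen, B1M had 69.4 CPM in its GFP-HI library, against 64.1 CPM in its GFP-LO library. Whether these reads came from Kif4 transcripts was not tested.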
